A study of Mus musculus with 10 samples.

Results

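The collagen genes read out in macrophages sorted from mouse mammary tumours are described here. They were taken as every row whose gene symbol is Col, a number, a and a number, as in Col1a1, which gave 44 loci among the 46956 loci listed with a symbol. Col4a3bp, which shares the first letters and encodes a lipid transfer protein, was not a member. All 10 samples came from tumours of 4T1, a mouse mammary carcinoma line, placed into the mammary fat pad of mice of the BALB/cJ strain, and were harvested and sorted on day 14. The 5 vehicle samples came from mice given PBS. The 5 JHU083 samples came from mice given 1 mg/kg of JHU083 on days 7 to 13. The compound is converted in the body to 6-diazo-5-oxo-L-norleucine, a glutamine antagonist. Sorted cells were positive for CD45, CD11b and F4/80 and negative for 7AAD, CD8, Ly6C and Ly6G. The labels do not say whether each sample came from its own mouse, so p-values measure the spread between these samples, which may be technical.

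Collagen chains wind around each other into a helix built on a repeat with glycine as the first residue of each triplet. Fibrillar collagens form the tension-bearing fibres of connective tissue, fibril-associated collagens decorate the surface of those fibres, and type IV and type VI collagens build the basement membrane network and beaded filaments. In tumours the interstitial collagens are known mainly from fibroblasts, while macrophages are known for taking up and degrading collagen and for making some chains themselves.

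The glycine repeat can be read in the coding sequence. All 44 collagen genes held an unbroken run of at least 10 triplets that each start with a GGN codon in the longest coding sequence of GENCODE M21 (GRCm38), against 54 of 21518 other genes, or 0.251%. The first 24 codons of the longest run are shown for the gene that rose with the most RNA (Col14a1), the gene with the largest fall (Col18a1) and a classic fibril chain (Col1a1), with glycine codons in capitals.
Col14a1, codons 1517 to 1540: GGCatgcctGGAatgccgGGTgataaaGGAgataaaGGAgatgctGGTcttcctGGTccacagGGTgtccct
Col18a1, codons 953 to 976: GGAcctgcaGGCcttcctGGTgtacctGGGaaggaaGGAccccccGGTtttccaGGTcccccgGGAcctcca
Col1a1, codons 168 to 191: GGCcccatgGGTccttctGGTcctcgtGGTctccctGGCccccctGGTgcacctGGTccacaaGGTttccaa
The run in Col1a1 went on for 338 triplets and made up 69.8% of its codons. In Col14a1 it was 32 triplets, or 5.34% of the codons, and in Col18a1 it was 30 triplets, or 5.07%. Most of the Col14a1 and Col18a1 coding sequence therefore lies outside the longest unbroken repeat, whereas Col1a1 is mostly repeat.

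Every collagen gene had at least 1 fragment in at least 1 sample, but 21 of the 44 loci did not pass the filter on low counts. Those 21 held 237 fragments in all, 109 in vehicle and 128 in JHU083, and at most 15 in a sample. They took in all 4 transmembrane collagens (Col13a1, Col17a1, Col23a1 and Col25a1), the cartilage collagens Col2a1, Col9a1, Col9a2, Col9a3, Col10a1 and Col11a1, and the tissue-restricted basement membrane chains Col4a3, Col4a4 and Col4a6. The others were Col6a4, Col6a5, Col8a2, Col19a1, Col22a1, Col24a1, Col26a1 and Col28a1. The remaining 23 loci were tested. A mean of at least 1 CPM (fragments per 1000000 in the library, scaled by TMM) in either group was reached by 22 loci, and a mean of at least 1 FPKM by 15.

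With JHU083, most of the measured collagen genes were lower. Of the 23 tested, 14 fell (60.9%), 3 rose (13.0%) and 6 did not pass an adjusted p of 0.05 in edgeR's quasi-likelihood test. Over all 12500 loci tested, 18.3% were lower and 18.4% higher at the same threshold (2293 and 2296 loci), and 36.7% were called in either direction, against 73.9% of the tested collagens. Scaling by library size alone gave 3141 lower and 1564 higher loci, and the same 14 and 3 for the collagens. The median log2 fold change, JHU083 minus vehicle, was -0.96 over the 23 collagen genes and 0.01 over all loci tested. Among the 14 that fell the log2 fold changes ran from -2.77 to -0.69 with a median of -1.39, and among the 3 that rose from 0.81 to 1.28. All 5 JHU083 samples lay below all 5 vehicle samples in 8 collagen genes, against 11.1% of all loci tested, and above them in 2, against 11.2%. Within the 5 libraries (3 vehicle, 2 JHU083) where Rn18s-rs5 and Gm42418, loci related to ribosomal RNA, are listed at 0, 4 of 23 collagens fell and 2 rose, against 4.61% lower and 4.18% higher of all loci tested there. Within the other 5 libraries 15 of 23 fell and 1 rose, against 11.9% lower and 9.86% higher of all loci. All 17 called collagens kept their direction in both sets. In bulk samples such as these, fewer cells of a type and less RNA per cell cannot be told apart.

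**Figure D1:**
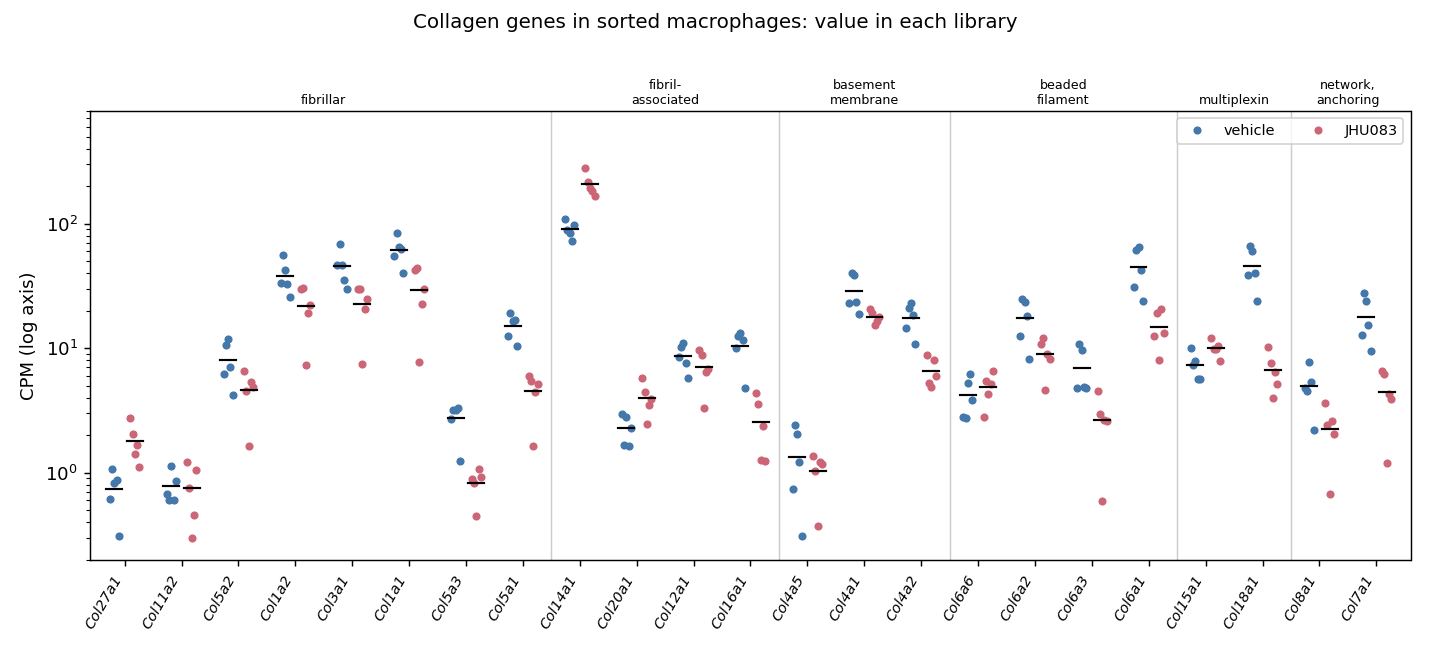
CPM of the 23 tested collagen genes on a log axis, grouped by collagen class; each point is 1 library and the black line is the group mean. The JHU083 points of Col14a1 lie between 166 and 279 CPM, above every vehicle point, while the JHU083 points of Col18a1 lie between 3.95 and 10.3 CPM, below every vehicle point.

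**Figure D2:**
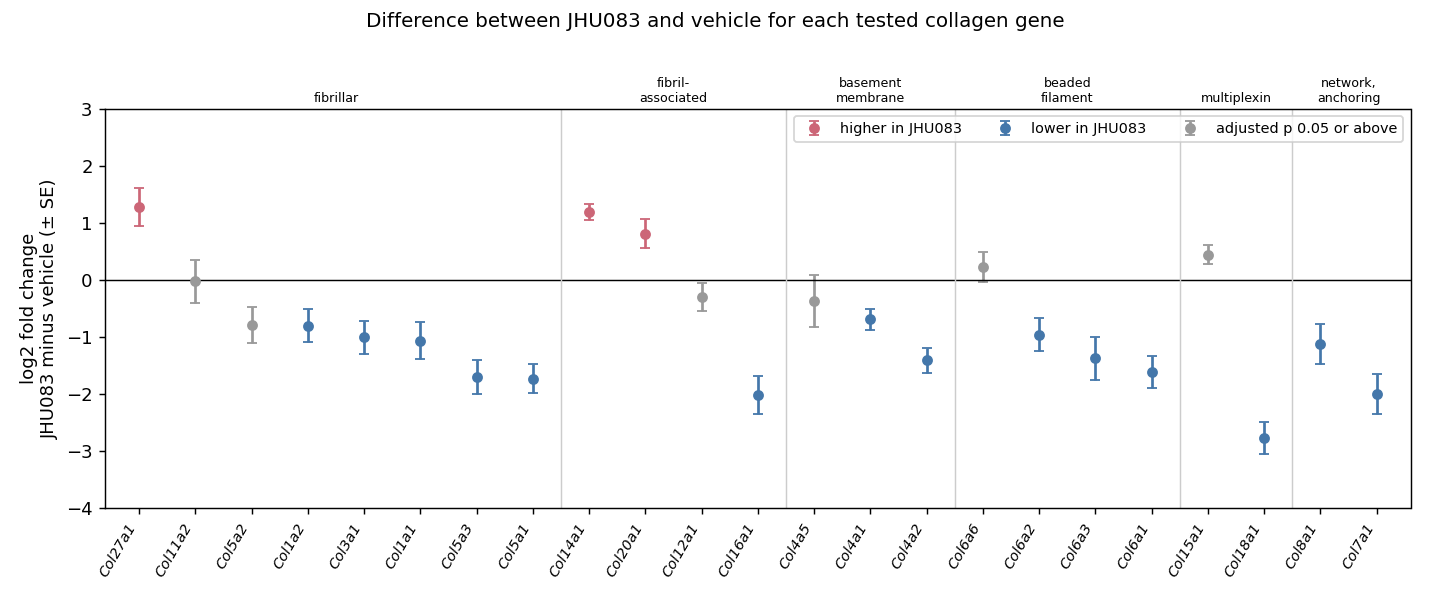
Log2 fold change of JHU083 minus vehicle with its standard error for each tested collagen gene, by class. The 14 genes that fell are spread over every tested class, and the 3 that rose are Col27a1, Col14a1 and Col20a1.

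Among the fibrillar collagens, 8 of 11 loci were tested, 5 fell and 1 rose. Col1a1, the main chain of type I collagen (chromosome 11, 94936224 to 94953042, GRCm38), had 54.7, 83.8, 65.4, 63.1 and 39.9 CPM in vehicle replicates 1 to 5 and 42.6, 44.1, 7.75, 22.6 and 29.6 CPM in JHU083 replicates 1 to 5. The lowest JHU083 library was replicate 3, and only vehicle replicate 5 lay within the JHU083 range. The means were 61.4 ± 16 and 29.3 ± 15.0 CPM (SD, n = 5 each). The log2 fold change with its standard error was -1.06 ± 0.33 (adjusted p = 0.0210 in edgeR). Without vehicle replicate 2 or without JHU083 replicate 4, Col1a1 lost its call, at log2 fold changes of -0.93 and -0.98.

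Col1a2, the partner chain of type I collagen (chromosome 6, 4504814 to 4541544), had 33.6, 56.0, 42.2, 32.7 and 25.9 CPM in vehicle and 30, 30.3, 7.38, 19.0 and 22.1 CPM in JHU083. Its log2 fold change was -0.80 ± 0.29 (adjusted p = 0.0427 in edgeR), the weakest of the 14 falls by adjusted p. DESeq2 did not call it, nor did 6 of the 10 fits that left out a library: those without vehicle replicate 1, 2, 3 or 4 and without JHU083 replicate 4 or 5, at log2 fold changes between -0.86 and -0.63. Col3a1, type III collagen, which often shares fibrils with type I (chromosome 1, 45311538 to 45349706; the locus also lists AC125167.1, and Gm47302 shares exon positions on the same strand), had 46.7, 68.4, 46.7, 35.2 and 29.7 CPM in vehicle and 29.8, 29.8, 7.46, 20.8 and 24.6 CPM in JHU083. It fell by 1.01 ± 0.29 on the log2 scale (adjusted p = 0.0152 in edgeR). In both genes vehicle replicate 5 was the only vehicle library inside the JHU083 range.

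Of the type V chains, minor fibril components known for setting where fibrils start, 2 of 3 fell. Col5a1 (chromosome 2, 27886425 to 28039514) had 12.5, 19.2, 16.7, 16.8 and 10.5 CPM in vehicle and 5.93, 5.42, 1.64, 4.43 and 5.17 CPM in JHU083. The groups did not overlap, and the log2 fold change was -1.73 ± 0.25 (adjusted p = 0.000172 in edgeR). Col5a3 (chromosome 9, 20770050 to 20815067) had 2.72, 3.20, 3.17, 3.30 and 1.25 CPM in vehicle and 0.886, 0.823, 0.447, 1.07 and 0.917 CPM in JHU083. It too was separated between the groups, at -1.70 ± 0.31 (adjusted p = 0.000736 in edgeR). Col5a2 ran from 4.23 to 11.9 CPM in vehicle and from 1.64 to 6.61 CPM in JHU083. Its log2 fold change of -0.80 ± 0.32 did not pass (adjusted p = 0.0625 in edgeR), though it did with DESeq2. Annotated genes on the opposite strand share exon positions with Col5a1, and the library kit is not stated to keep strand, so their reads cannot be told apart.

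Col27a1, a fibrillar collagen known from cartilage (chromosome 4, 63214004 to 63334991), went the other way. It had 0.611, 1.07, 0.830, 0.869 and 0.313 CPM in vehicle and 2.73, 2.06, 1.42, 1.68 and 1.11 CPM in JHU083. Every JHU083 library was above every vehicle library, and the log2 fold change was 1.28 ± 0.34 (adjusted p = 0.00916 in edgeR). Within the libraries listing the ribosomal RNA loci at 0 and within the others Col27a1 did not pass, at log2 fold changes of 1.46 and 1.15. These are low levels: 3 fragments correspond to between 0.196 and 0.261 CPM on the same scale, a limit that covers counting error only. Col11a2, a type XI chain, was at 0.608 to 1.13 CPM in vehicle and 0.298 to 1.23 CPM in JHU083, and did not pass (-0.02 ± 0.38, adjusted p = 0.969 in edgeR).

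Fibril-associated collagens held 2 of the 3 rises: 4 of 9 loci were tested, 2 rose and 1 fell. Col14a1, type XIV collagen, which binds the surface of fibrils and regulates their growth (chromosome 15, 55307750 to 55520803), had 109, 89.1, 84.4, 72.6 and 97.1 CPM in vehicle and 279, 214, 193, 182 and 166 CPM in JHU083. The lowest JHU083 library stood well above the highest vehicle library. The means were 90.5 ± 13.8 and 207 ± 43.8 CPM (SD, n = 5 each), and Col14a1 rose by 1.19 ± 0.14 on the log2 scale (adjusted p = 2.33e-05 in edgeR), which is 2.28-fold. It held its call in every alternative run, with log2 fold changes from 0.94 to 1.45.

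Col20a1, a little-studied fibril-associated chain (chromosome 2, 180986535 to 181018363; the locus also lists 9230112E08Rik, and BX649560.1 shares exon positions on the same strand), had 2.99, 1.68, 2.79, 1.65 and 2.27 CPM in vehicle and 5.73, 4.46, 2.46, 3.52 and 3.93 CPM in JHU083. JHU083 replicate 3 lay within the vehicle range, and the log2 fold change was 0.81 ± 0.25 (adjusted p = 0.0205 in edgeR). The call was lost without vehicle replicate 2, vehicle replicate 4 or JHU083 replicate 1, at log2 fold changes of 0.72, 0.72 and 0.65. Col20a1 also lost it within the libraries listing the ribosomal RNA loci at 0 (adjusted p = 0.122 in edgeR) and within the others (adjusted p = 0.276 in edgeR, log2 fold change 0.45). Col16a1, which is found beside fibrils and in basement membrane zones (chromosome 4, 130047840 to 130099283), had 9.98, 12.6, 13.3, 11.7 and 4.78 CPM in vehicle and 4.36, 3.56, 1.27, 2.37 and 1.24 CPM in JHU083. It fell by 2.02 ± 0.34 on the log2 scale (adjusted p = 0.000451 in edgeR), with no overlap of the groups. Col12a1, which is built much like type XIV collagen, ran from 5.79 to 11.1 CPM in vehicle and 3.28 to 9.61 CPM in JHU083 and did not pass (-0.30 ± 0.24, adjusted p = 0.354 in edgeR).

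Of the basement membrane chains, 3 of 6 were tested, 2 fell and none rose. Col4a1 and Col4a2, the chains of the common type IV network, lie head to head on chromosome 8 (11198423 to 11312826 on the minus strand and 11312805 to 11449287 on the plus strand), so exon positions at their starts overlap, and Gm15419 shares exon positions with Col4a2 on the opposite strand. Col4a2 had 14.5, 21.2, 23.0, 18.5 and 10.8 CPM in vehicle and 8.86, 5.21, 4.85, 8.10 and 6.02 CPM in JHU083, with no overlap. It fell by 1.41 ± 0.22 on the log2 scale (adjusted p = 0.000224 in edgeR). Col4a1 had 23.0, 39.8, 38.7, 23.6 and 18.9 CPM in vehicle and 20.7, 19.2, 15.3, 16.4 and 17.7 CPM in JHU083, and fell by 0.69 ± 0.19 (adjusted p = 0.0113 in edgeR). Its smaller fall left vehicle replicate 5 inside the JHU083 range. In fragments, the ratio of Col4a2 to Col4a1 was 0.532 to 0.783 in vehicle libraries and 0.271 to 0.493 in JHU083 libraries. Chain ratios went the other way for Col6a2 to Col6a1, from 0.342 to 0.428 in vehicle and from 0.432 to 0.853 in JHU083. For Col1a2 to Col1a1 the ranges were 0.518 to 0.668 in vehicle and 0.687 to 0.952 in JHU083. The groups did not overlap in any of the 3 ratios, which were not tested. In FPKM, which uses lengths that vary by library, the Col4a2 to Col4a1 and Col1a2 to Col1a1 ranges did overlap. Col4a5, an X-linked chain known from kidney, was at 0.313 to 2.44 CPM in vehicle and 0.373 to 1.36 CPM in JHU083 and did not pass (-0.38 ± 0.46, adjusted p = 0.544 in edgeR).

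Type VI collagen, which forms beaded filaments around cells, had 4 of 6 loci tested, with 3 falls and no rise. Col6a1 (chromosome 10, 76708792 to 76726168) had 31.0, 61.5, 65.5, 42.7 and 23.8 CPM in vehicle and 12.5, 19.1, 8.05, 20.7 and 13.2 CPM in JHU083. Its groups did not overlap and it fell by 1.61 ± 0.28 on the log2 scale (adjusted p = 0.000672 in edgeR). The neighbouring gene Col6a2 (chromosome 10, 76595762 to 76623630) had 12.6, 24.6, 23.3, 18.2 and 8.14 CPM in vehicle and 10.7, 12.0, 4.62, 8.95 and 8.25 CPM in JHU083. It fell by 0.96 ± 0.28 (adjusted p = 0.0170 in edgeR), with vehicle replicate 5 the only overlapping vehicle library. Col6a3, the long chain of the heterotrimer (chromosome 1, 90765923 to 90843971), had 4.82, 10.7, 9.66, 4.87 and 4.78 CPM in vehicle and 4.50, 2.95, 0.596, 2.68 and 2.62 CPM in JHU083. The groups were separated narrowly and it fell by 1.38 ± 0.37 (adjusted p = 0.0105 in edgeR). Col6a6, an alternative to the long chain whose exons overlap Gm38314 on the opposite strand, ran from 2.74 to 6.26 CPM in vehicle and 2.80 to 6.61 CPM in JHU083, and did not pass (0.23 ± 0.27, adjusted p = 0.533 in edgeR).

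The network and anchoring class had 2 of 4 loci tested, and both fell. Col7a1, which forms the anchoring fibrils that tie epithelium to the tissue beneath (chromosome 9, 108953586 to 108984875; the locus also lists Mir711), had 12.8, 27.7, 23.8, 15.5 and 9.55 CPM in vehicle and 6.55, 6.24, 1.19, 4.28 and 3.93 CPM in JHU083. It fell by 2.0 ± 0.35 on the log2 scale (adjusted p = 0.000666 in edgeR), with no overlap. Col8a1, a short-chain collagen of vessel walls (chromosome 16, 57624258 to 57754737), had 4.82, 4.57, 7.77, 5.39 and 2.19 CPM in vehicle and 3.61, 2.40, 0.671, 2.60 and 2.03 CPM in JHU083. Its fall of 1.12 ± 0.36 (adjusted p = 0.0245 in edgeR) was lost without vehicle replicate 3 or 4 or JHU083 replicate 5, at log2 fold changes of -0.90, -1.10 and -1.08, and with the replicate number as a block, at -1.10.

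The multiplexins, basement membrane collagens with an interrupted helix, were both tested, and 1 fell while the other did not pass. Col18a1, whose carboxy-terminal fragment is known as endostatin (chromosome 10, 77052178 to 77166548), had 38.8, 65.8, 60.5, 40.1 and 23.7 CPM in vehicle and 10.3, 7.54, 3.95, 6.50 and 5.17 CPM in JHU083. The JHU083 mean of 6.69 ± 2.43 CPM was 14.6% of the vehicle mean of 45.8 ± 17.2 CPM (SD, n = 5 each). The log2 difference of -2.77 ± 0.28 had an adjusted p of 1.07e-05 in edgeR, and the groups did not overlap. Col15a1, its closest relative in the family, had 9.98, 7.31, 7.92, 5.65 and 5.64 CPM in vehicle and 12.1, 9.80, 9.77, 10.4 and 7.92 CPM in JHU083. Its log2 fold change of 0.45 ± 0.17 just missed the threshold (adjusted p = 0.0505 in edgeR), and it passed with DESeq2 and with limma-voom. The exons of Gm12426 on the opposite strand share positions with Col15a1.

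The order of levels among collagen genes was read per unit length, in FPKM, the length-scaled values that the authors deposited. The lengths behind them varied by library, so tests of differences between groups used counts only, and sums of FPKM by group are descriptions. In vehicle, Col14a1 was highest at 18 ± 2.96 FPKM, followed by Col6a1 at 10.6 ± 4.37, Col1a1 at 9.85 ± 2.60, Col18a1 at 8.69 ± 3.27 and Col3a1 at 8.56 ± 2.70 FPKM (SD, n = 5 each). Neighbours in that order had overlapping ranges. In JHU083, Col14a1 at 40.0 ± 8.73 FPKM no longer overlapped the next genes, Col1a1 at 4.73 ± 2.44 and Col3a1 at 4.57 ± 1.47 FPKM, while Col18a1 stood ninth at 1.47 ± 0.55 FPKM.

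The 44 collagen loci summed to 91.5 ± 20.1 FPKM in vehicle (63.6 to 116) and 76.2 ± 15.3 FPKM in JHU083 (58.9 to 99.1), so the totals overlapped. Col14a1 made up 20.8 ± 6.94% of the vehicle sum, between 14.4% and 30.6% by library. In JHU083 it made up 52.9 ± 8.82%, between 43.9% and 67.2%. Without Col14a1 the sum was 73.4 ± 21.3 FPKM in vehicle and 36.2 ± 10.1 FPKM in JHU083. Counted in fragments, the Col14a1 share was 19.8 ± 6.54% in vehicle and 54.0 ± 8.40% in JHU083. No test was made of these sums.

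**Figure D3:**
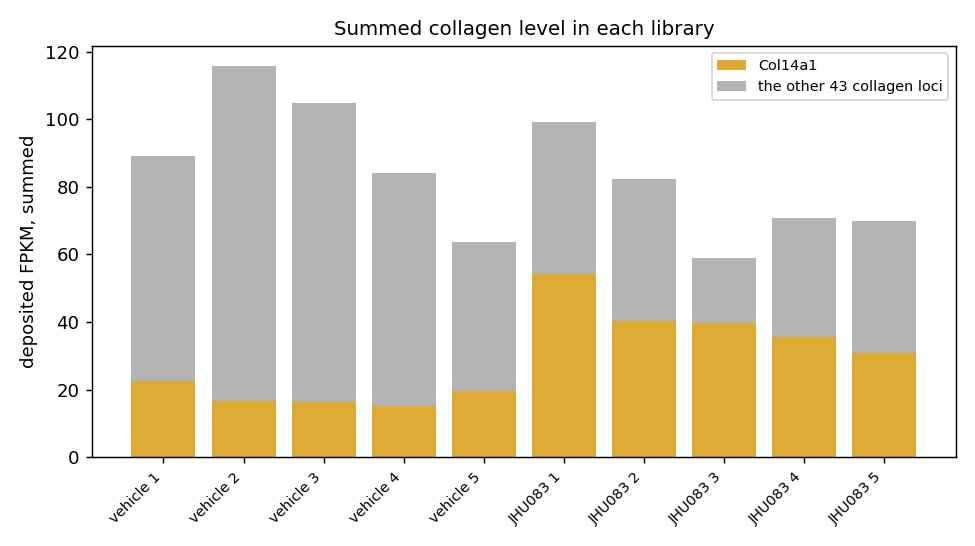
Summed deposited FPKM of the 44 collagen loci in each of the 10 libraries, with Col14a1 in yellow and the other loci in grey, from a zero baseline. Totals overlap between the groups, while the Col14a1 portion is 14.4% to 30.6% in vehicle and 43.9% to 67.2% in JHU083.

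Genes for collagen synthesis, folding and secretion were listed at 23 loci, of which 20 were tested, 6 rose and 4 fell, with a median log2 fold change of -0.09, against 18.4% higher and 18.3% lower over all loci tested. P3h2, a prolyl 3-hydroxylase, rose from 0.923 ± 0.343 to 10.7 ± 2.08 CPM, or by 3.51 ± 0.23 on the log2 scale (adjusted p = 4.92e-07 in edgeR). Fkbp14, a foldase of the endoplasmic reticulum, rose by 1.05 ± 0.28 (adjusted p = 0.00885 in edgeR). Serpinh1, the collagen chaperone HSP47, fell from 35.0 ± 16 to 9.89 ± 3.92 CPM, or by 1.82 ± 0.33 on the log2 scale (adjusted p = 0.000735 in edgeR), and the lysyl hydroxylase Plod2 fell by 1.26 ± 0.30 (adjusted p = 0.00442 in edgeR).

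Among genes that trim and cross-link collagen outside the cell, 11 of 14 loci were tested, 9 fell and none rose, with a median log2 fold change of -1.54, against 18.3% lower and 18.4% higher over all loci tested. The steepest was Loxl4, a lysyl oxidase relative, at 3.90 ± 1.30 CPM in vehicle and 0.408 ± 0.145 CPM in JHU083 (log2 fold change -3.23 ± 0.33, adjusted p = 1.07e-05 in edgeR). Adamts14, a procollagen amino-propeptidase, fell by 2.55 ± 0.42, Loxl1 fell by 2.14 ± 0.37, and Pcolce, an enhancer of carboxy-propeptide removal whose locus also lists Fbxo24, fell by 1.85 ± 0.28. Tll2, another propeptidase, had no fragment in any sample.

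Collagen receptors and uptake genes had 9 of 11 loci tested, with 4 falls, 1 rise and a median log2 fold change of -0.79, against 18.3% lower and 18.4% higher over all loci tested. Those that fell were the integrin chain Itga2 (-2.13 ± 0.44), the discoidin domain receptor kinases Ddr2 (-1.61 ± 0.28) and Ddr1 (-1.38 ± 0.25), and the endocytic receptor Mrc2 (-1.20 ± 0.43). The rise, named after its value was seen, was in Mrc1, the macrophage mannose receptor, which also takes up collagen (0.78 ± 0.20, adjusted p = 0.00754 in edgeR). Gp6, the platelet collagen receptor, had no fragment in any sample.

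All 10 degradation genes were tested, and 3 rose and 3 fell (median log2 fold change -0.05), against 18.4% higher and 18.3% lower over all loci tested. Mmp2, a gelatinase, rose from 6.22 ± 1.02 to 25.7 ± 4.95 CPM (log2 fold change 2.04 ± 0.16, adjusted p = 1.45e-06 in edgeR). The other gelatinase, Mmp9, fell by 1.65 ± 0.35, the lysosomal collagenase cathepsin K gene Ctsk by 1.71 ± 0.27, and the interstitial collagenase gene Mmp13 by 0.98 ± 0.18.

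Markers of other cell types were read beside the collagens, because CD45 sorting is meant to leave out tumour epithelium and fibroblasts. The 10 macrophage markers were abundant in every library. They summed to between 13356 and 17021 CPM in vehicle and between 15591 and 19778 CPM in JHU083. All 10 were tested, and 3 rose and none fell, against 18.4% higher and 18.3% lower over all loci tested. Those that rose on the log2 scale were Mertk (0.97 ± 0.09), Adgre1 (0.63 ± 0.07) and Csf1r (0.51 ± 0.09). Tumour epithelial markers were present too and moved with the collagens that fell. Of 14 markers, 13 were tested and all 13 fell, against 18.3% lower over all loci tested. Their median log2 fold change was -1.91. Their summed level was 319 to 707 CPM in vehicle and 109 to 231 CPM in JHU083. Cldn7 fell by 3.17 ± 0.38, Wfdc2 by 2.46 ± 0.25, Esrp1 by 2.33 ± 0.35 and Krt7 by 2.28 ± 0.25 on the log2 scale. Krt8 went from 144 ± 49.7 to 36.2 ± 11.2 CPM and Epcam from 31.8 ± 11.7 to 9.27 ± 3.39 CPM, 2 markers chosen after their values were seen. Cdh1 is also known from some macrophages. No epithelial marker was at 0 in all samples, and the part of epithelial RNA in the collagen differences was not tested.

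Fibroblast markers summed to 31.2 to 56.7 CPM in vehicle and 34.7 to 58.3 CPM in JHU083, ranges that overlapped. Fap (11 ± 3.02 and 20.1 ± 2.07 CPM) and Postn (10.3 ± 3.42 and 13.6 ± 3.98 CPM) are a large portion of that sum. The other 11 markers, a sum made after these values were seen, came to 15.2 to 32.2 CPM in vehicle and 6.93 to 21.2 CPM in JHU083. Of 13 markers, 9 were tested, 7 had a log2 fold change below 0 and the median was -0.58. Of the 9, 3 fell and 1 rose, against 18.3% lower and 18.4% higher over all loci tested. Those shares also stand beside the counts of the lists that follow. Pdgfra fell by 1.17 ± 0.32, Fbn1 fell by 0.84 ± 0.31, Thy1 fell by 0.74 ± 0.23 and Fap rose by 0.87 ± 0.17. The matrix proteoglycan genes Dcn (2.33 ± 1.75 and 2.16 ± 1.07 CPM) and Lum (1.07 ± 0.545 and 0.983 ± 0.501 CPM) are given for vehicle and JHU083, and neither they nor Postn passed the test; all 3 were chosen after their values were seen. Pericyte and smooth muscle markers summed to 12.8 to 21.8 CPM in vehicle and 9.17 to 14.5 CPM in JHU083, with 2 of 5 tested markers lower, Notch3 (-1.16 ± 0.37) and Pdgfrb (-0.78 ± 0.26), and none higher. Endothelial markers summed to 135 to 221 CPM in vehicle and 45.8 to 94.7 CPM in JHU083. Nearly all of that difference lay in Pecam1, 1 of them that leukocytes also express, at 150.5 ± 32.5 and 52.5 ± 20.2 CPM. Of 5 tested, Pecam1 (-1.52 ± 0.25) and Egfl7 (-1.17 ± 0.32, a locus that lists other genes as well) fell and Tie1 (0.56 ± 0.13) rose. Cdh5 (-0.49 ± 0.27) and Kdr (-0.15 ± 0.12), named after their values were seen, did not pass. Adipocyte markers summed to at most 0.521 CPM in any library. Neutrophil markers had 2 of 3 tested lower, S100a9 (-2.18 ± 0.33) and S100a8 (-1.40 ± 0.26). Of 5 tested eosinophil and mast cell markers, Siglecf (0.89 ± 0.24) and Cpa3 (0.79 ± 0.29) rose and Mcpt4 (-0.79 ± 0.29) fell. Among lymphocyte markers only Cd4 (1.12 ± 0.13) was tested, and it rose. Cd3e, Cd3d and Cd8a, named after their values were seen, had at most 10, 8 and 6 fragments in a library. The part of any of these in the collagen differences was not tested.

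Libraries also differed within each group in a way most collagen genes shared. Vehicle replicate 5 was the lowest vehicle library in 19 of the 23 tested collagens, against 20.7% of all loci tested. JHU083 replicate 3 was the lowest JHU083 library in 18 of 23, against 31.6% of all loci tested. Col14a1 was not lowest in either of them. The same 2 libraries had the lowest summed epithelial, fibroblast and pericyte markers of their groups, while JHU083 replicate 3 and vehicle replicate 5 had the highest summed macrophage markers. Without both libraries, all 17 called collagen genes kept their call, and Col5a2 was called lower as well. All 6 genes that fell with overlapping groups overlapped through vehicle replicate 5 alone.

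**Figure D4:**
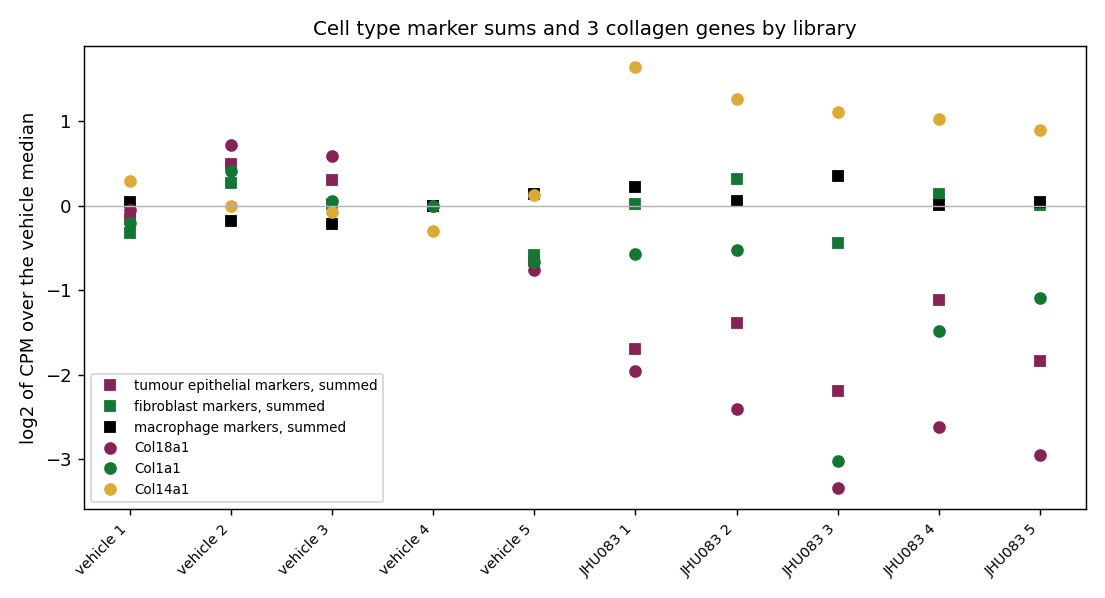
Log2 of CPM over the vehicle median in each of the 10 libraries, for 3 summed marker lists (squares) and 3 collagen genes (circles). Col18a1 and the epithelial markers lie lower in every JHU083 library than in every vehicle library, the fibroblast sum, a large portion of it Fap and Postn, overlaps between groups, and Col14a1 lies higher in every JHU083 library.

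Sequences ahead of the start sites were also read, as most tested members moved in the same direction. The set of RefSeq (GRCm38.p6) windows used held 38 windows of the 250 bases before a start site for 35 of the 44 collagen genes. It held 32851 windows over all genes. Among tested members, Col14a1, Col1a1, Col5a2 and Col12a1 had no window in this set, and the other genes without one were not tested. Each window was searched on both strands for the GC box GGGCGG, for the box named by its letters CCAAT, for the TATA box spelled TATAAA and for the AP-1 motif spelled TGANTCA. The GC box was in 57.9% of collagen windows and 32.7% of all windows, and the median GC content was 59.0% and 52.4%. The shares in collagen and in all windows were 34.2% and 33.8% for CCAAT, 13.2% and 12.4% for TATAAA, and 2.63% and 6.75% for TGANTCA. Of the 15 windows of 13 genes that fell, 10 held GGGCGG and 7 held CCAAT; of the 2 windows of genes that rose, 1 held GGGCGG. No annotated exon lay in 7 of the windows of genes that fell; 5 of these held GGGCGG and 2 held CCAAT. To show that range, 2 of the 7 are printed, Col5a3 with both motifs and Col3a1 with neither of them but with TATAAA, beside Col27a1, which rose. They were picked after the matches were seen, and capitals mark matches on either strand.
Col5a3, chr9:20815068-20815317, minus strand: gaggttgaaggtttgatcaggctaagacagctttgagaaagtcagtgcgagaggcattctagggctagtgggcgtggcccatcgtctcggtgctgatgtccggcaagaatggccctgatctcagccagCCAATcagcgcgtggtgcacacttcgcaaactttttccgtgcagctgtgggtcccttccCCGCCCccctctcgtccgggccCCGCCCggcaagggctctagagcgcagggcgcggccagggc
Col3a1, chr1:45311288-45311537, plus strand: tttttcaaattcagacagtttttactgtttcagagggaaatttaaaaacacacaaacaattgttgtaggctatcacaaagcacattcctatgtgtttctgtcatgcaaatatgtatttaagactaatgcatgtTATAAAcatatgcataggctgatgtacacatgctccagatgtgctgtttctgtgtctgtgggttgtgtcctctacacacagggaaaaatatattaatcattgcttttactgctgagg
Col27a1, chr4:63215162-63215411, plus strand: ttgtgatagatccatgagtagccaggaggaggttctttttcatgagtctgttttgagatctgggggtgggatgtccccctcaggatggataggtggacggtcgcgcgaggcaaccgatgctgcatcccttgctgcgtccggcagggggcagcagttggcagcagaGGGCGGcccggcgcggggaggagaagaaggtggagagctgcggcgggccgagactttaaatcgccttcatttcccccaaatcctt
The windows of genes that fell thus did not share a motif of the 4 searched. These are matches of letters only.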

How the data were processed

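RNA from 10 sorted samples, 5 vehicle and 5 JHU083, grouped by their labelled treatment, was analysed. Per the labels' protocols, poly(A) RNA was randomly primed and made into paired-end libraries. The submitters' processing notes name GRCm38, TopHat2 2.1.1, bcl2fastq 2.17.1.14 and FastQC 0.11.2; the counting program and annotation are not given in the sources used here. The authors deposited expected counts (not whole numbers) and, from the values, FPKM, each per locus. In each library the deposited counts are multiples of a step; dividing by it gave whole numbers (within 0.05) for 99.8% of values in the library with the fewest such values, and they were rounded and used as fragment counts. The design had assumed counts. The row without a symbol held at most 0.00209% of fragments and was left out. Totals were 11147723 to 14575720 fragments in vehicle and 13638169 to 15740488 in JHU083 (exact two-sided permutation p = 0.0238).

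Loci were filtered with filterByExpr, scaled by TMM and tested with edgeR 4.0.16 (R 4.3.3), with Benjamini-Hochberg adjustment over all 12500 loci at 0.05. The standard error is the absolute log2 fold change over the square root of F, and CPM uses TMM-scaled library sizes, with a prior count of 2 for log2 CPM. The FPKM were used, with no test, for the order of levels and for sums over the collagen loci. The test was checked on simulated data. Alternatives were DESeq2 1.42.0, limma-voom 3.58.1, other scalings and filters, the deposited values rounded, loci with 1 symbol, leaving out rRNA-related loci or each library, a replicate block, and splits by whether rRNA-related loci are listed at 0; leaving out 2 libraries together was chosen after seeing the data. Python 3.11.15, numpy 2.4.6, pandas 2.3.3, scipy 1.17.1 and matplotlib 3.10.9 were used.

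Members and lists were chosen with earlier results of these data known. All tested members are named, with values per library for those past the threshold, and of each list up to 4 genes with the largest absolute log2 fold change past the threshold; other list genes are marked as chosen after their values were seen. Positions and coding sequences are from GENCODE M21 by symbol and promoter windows from RefSeq (GRCm38.p6); neither need be the authors' annotation.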

Additional observations from a re-analysis of the deposited data

Results flagged for a closer look

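Of 46 groups of 5 libraries (23 collagen genes in each treatment), 7 had a library far from the other 4 in log2 CPM. Chance would give about 2.3, or about 1 in 20, if the groups were independent. The genes were read in the same libraries, so the 7 are not separate events. In JHU083 it was replicate 3 each time. Its log2 CPM was 2.93 for Col3a1 against a next value of 4.39, 0.84 for Col5a1 against 2.20, 0.84 for Col5a2 against 2.22, -0.43 for Col6a3 against 1.47 and -0.95 for Col4a5 against 0.23. In vehicle it was replicate 5 each time, at 2.3 for Col16a1 against 3.34 and 0.48 for Col5a3 against 1.52. All 7 were low values. These are the libraries that were lowest in most collagen genes and in the summed epithelial, fibroblast and pericyte markers; the part of those cells in the low values was not tested.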

How the results depend on the processing

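The 14 falls and 3 rises were counted again with each setting changed. Across fits leaving out 1 library, collagen falls ran from 12 to 15 and rises from 2 to 4, and calls over all loci from 1900 to 2930 lower and 1821 to 2899 higher. Other tools, scalings and filters gave 12 to 15 falls and 2 to 4 rises. The fit of loci with 1 symbol left out Col3a1, Col7a1 and Col20a1, so its counts were lower without a lost call. Without the filter on low counts all 44 collagens were tested. Library size scaling alone moved the split over all loci to 1564 higher and 3141 lower, with collagen counts of 3 and 14. The replicate block gave 4 rises and 13 falls (1612 higher and 1757 lower over all loci). Same-numbered samples did not deviate together over all loci (correlations from -0.57 to 0.09). That showed no sign of a pairing by number, though a weaker one could go unseen. Each split by the 2 rRNA-related loci compared fewer samples. Within the 5 libraries where these loci are listed at 0, 4 collagens fell, 2 rose, and 532 loci were higher and 586 lower. That set holds vehicle replicate 5 and JHU083 replicate 3, the libraries lowest in most collagen genes. Within the other 5, 15 fell, 1 rose, and 1276 loci were higher and 1542 lower; the cause was not tested. All 17 called collagens kept their direction in both sets. Of 524 gene-by-setting comparisons, 473 kept direction and call, 30 lost a call, 14 gained it and 7 reversed, and 5 of the 17 called genes kept theirs throughout. The reversals were in genes that were not called: Col11a2 (leave-one-out range -0.26 to 0.17, with 0.15 without vehicle replicate 3, 0.01 without vehicle replicate 5, 0.17 without JHU083 replicate 3 and 0.11 without JHU083 replicate 4; 0.16 within the libraries at 0; 0.21 without JHU083 replicate 3 and vehicle replicate 5) and Col6a6 (-0.27 within the libraries at 0); the cause was not tested. Genes of a few fragments per library cannot be compared at this depth.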
